A study of Mus musculus with 6 samples.

Results

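Complement and coagulation proteins are enzymes, cofactors and inhibitors that circulate in plasma and are made mainly by hepatocytes. In complement, recognition proteins such as the mannose-binding lectins, ficolins and pentraxins bind microbial or damaged surfaces, proteases then cleave the central components, and the terminal components assemble into a membrane pore. In coagulation, a chain of proteases ends with thrombin, which cuts fibrinogen into fibrin, while the protein C system limits the chain and plasmin dissolves the clot. Many of these genes are also acute phase genes, whose transcription in hepatocytes changes with interleukin signals during inflammation.
The set listed here holds 51 genes named by their known function: 21 of complement, with its lectin pathway and pentraxins, 22 of coagulation and fibrinolysis, and 8 other plasma proteins. The genes of serpins and of C1q are not in it. Members were taken as genes with a probe set (a group of oligonucleotides against a transcript) that carries exactly 1 gene symbol, equal to the listed name, and this gave 47 measured members with 64 probe sets, among 18193 genes in all. C3, Cfd and Cpb2 were not analysed here, and C4b has only a probe set that it shares with C4a.
Total liver RNA of 3 Dnajb4+/+ (wild-type) and 3 Dnajb4-/- mice, labelled as male C57BL/6 mice aged 6 to 8 weeks, was hybridised to 1 Affymetrix Mouse Genome 430 2.0 array each. Neither genotype received a treatment. Dnajb4 encodes HLJ1, a DnaJ (heat shock protein 40) co-chaperone, and the null allele was made by gene targeting in embryonic stem cells, so that it is carried by all cells of the animal and not by hepatocytes alone. The values are the authors' GCRMA intensities on a linear scale, which are corrected for background by probe GC content and normalized between arrays, and differences are on the log2 scale, Dnajb4-/- minus Dnajb4+/+. The question put to them here is which of these plasma protein genes differed between the genotypes, and whether those of complement and of coagulation did so to a like extent.
The labels were checked before the comparison. The brightest Dnajb4 probe set read 588, 566 and 612 in the Dnajb4+/+ arrays and 467, 480 and 453 in the Dnajb4-/- arrays. This fall of 0.34 on the log2 scale leaves most of the signal in place. The other Dnajb4 probe sets differed by -0.049 and -0.035 and did not pass (adjusted p = 0.603 and 0.911 in limma, over all probe sets). The parts of the transcript that these probe sets read were not analysed here. Xist, an RNA of female cells, read 364 to 402 in the Dnajb4+/+ and 14.3 to 17.1 in the Dnajb4-/- arrays. This goes against the label of male mice for all 3 Dnajb4+/+ arrays. The Y-linked gene Eif2s3y read 62.6 to 72.3 and 77.4 to 81.3. None of the 3 measured Y-linked genes passed (adjusted p in limma 0.0655 for Eif2s3y, 0.0507 for Uty and 0.826 for Kdm5d). Among the other genes listed, 10 of 11 measured female-high liver genes (Xist among them) were lower and 9 of 9 male-high liver genes were higher in Dnajb4-/- livers, and 9 of 10 skeletal muscle genes were lower. Of 10 measured hepatocyte markers 3 were lower, 2 higher and 5 not called, and their summed intensity was 106971 to 107390 in Dnajb4+/+ and 104101 to 105010 in Dnajb4-/- arrays. Over all genes 9.57% were lower and 5.09% higher. The ratio of 3' to 5' signal of Gapdh, a sign of RNA integrity, was 1.16 to 1.19 in Dnajb4+/+ and 1.43 to 1.48 in Dnajb4-/- arrays (exact permutation test, two-sided, p = 0.1, the smallest that 3 arrays against 3 allow). For Actb this ratio was 2.59 to 2.68 and 3.10 to 3.22 (exact permutation test, p = 0.1). For each difference below, genotype, sex-linked RNA and RNA integrity cannot be told apart, as each separates the same arrays, and nothing says that the 3 arrays of a genotype came from separate extractions beyond their label as biological replicates.

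The promoters of 40 of the 51 listed members were found in the RefSeq promoter table of GRCm38.p6 by gene symbol. They are shown for Mbl2, Apcs, Fcna and Cfp, which were lower in Dnajb4-/- livers under every setting tried, and, chosen after their values were seen, for F12, the member that was higher, and for Fga and Fgb, which did not pass the test. Each line is the 250 bases before the annotated start, 5' to 3' on the strand of the gene, and capitals mark matches to the motifs searched on both strands: TTCNNNGAA (STAT), TTGNNCAA (C/EBP), GTTAAT or ATTAAC (part of an HNF1 site), and CAAAGTCCA or CAAAGGTCA with their reverse complements (forms of an HNF4 site). STAT factors and C/EBP proteins carry acute phase signals in hepatocytes, and HNF1 and HNF4 are liver-enriched transcription factors. The windows are chr19:30232678-30232927 (+ strand) for Mbl2, chr1:172895055-172895304 (- strand) for Apcs, chr2:25627975-25628224 (- strand) for Fcna, chrX:20931556-20931805 (- strand) for Cfp, chr13:55426805-55427054 (- strand) for F12, chr3:83025903-83026152 (+ strand) for Fga and chr3:83049864-83050113 (- strand) for Fgb.
Mbl2: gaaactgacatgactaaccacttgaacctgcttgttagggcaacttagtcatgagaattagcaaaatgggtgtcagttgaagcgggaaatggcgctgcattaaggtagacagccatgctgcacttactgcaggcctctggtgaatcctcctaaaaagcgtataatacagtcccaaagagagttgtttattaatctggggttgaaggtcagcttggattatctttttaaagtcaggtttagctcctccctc
Apcs: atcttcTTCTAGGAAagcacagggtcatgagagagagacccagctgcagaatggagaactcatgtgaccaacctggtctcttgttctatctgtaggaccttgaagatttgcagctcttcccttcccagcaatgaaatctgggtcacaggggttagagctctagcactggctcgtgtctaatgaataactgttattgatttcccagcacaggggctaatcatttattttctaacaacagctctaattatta
Fcna: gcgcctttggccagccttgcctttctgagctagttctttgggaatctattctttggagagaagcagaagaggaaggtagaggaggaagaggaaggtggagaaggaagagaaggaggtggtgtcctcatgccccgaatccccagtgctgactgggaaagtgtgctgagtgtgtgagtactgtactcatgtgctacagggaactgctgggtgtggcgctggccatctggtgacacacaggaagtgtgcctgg
Cfp: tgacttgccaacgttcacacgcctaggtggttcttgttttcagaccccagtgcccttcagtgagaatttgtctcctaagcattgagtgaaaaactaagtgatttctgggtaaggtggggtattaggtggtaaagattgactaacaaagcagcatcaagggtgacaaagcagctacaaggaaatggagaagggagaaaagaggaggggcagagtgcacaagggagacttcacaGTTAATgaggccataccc
F12: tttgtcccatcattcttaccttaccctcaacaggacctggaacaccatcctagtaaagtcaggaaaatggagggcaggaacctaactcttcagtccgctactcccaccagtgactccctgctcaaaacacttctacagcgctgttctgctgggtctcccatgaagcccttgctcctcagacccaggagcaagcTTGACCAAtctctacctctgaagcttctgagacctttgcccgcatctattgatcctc
Fga: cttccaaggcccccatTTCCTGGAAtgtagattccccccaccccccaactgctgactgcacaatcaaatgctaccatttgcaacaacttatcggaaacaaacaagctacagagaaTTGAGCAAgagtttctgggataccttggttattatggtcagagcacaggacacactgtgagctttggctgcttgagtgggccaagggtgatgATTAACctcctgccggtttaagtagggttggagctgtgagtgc
Fgb: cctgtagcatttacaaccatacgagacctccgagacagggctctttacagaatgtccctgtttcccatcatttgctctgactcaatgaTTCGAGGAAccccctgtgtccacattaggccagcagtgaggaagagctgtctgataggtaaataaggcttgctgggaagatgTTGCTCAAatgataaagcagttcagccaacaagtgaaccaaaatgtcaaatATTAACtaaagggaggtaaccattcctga
A match is a run of letters and not a known binding site. The Apcs window held a STAT match at position -244 from the start, Cfp the HNF1 letters at -18 and F12 a C/EBP match at -57. The Fga window held a STAT match at -234, a C/EBP match at -135 and the HNF1 letters at -43, and the Fgb window the same 3 kinds at -162, -80 and -29. In the windows of Mbl2 and Fcna none of these letters occurred. Over all members with a promoter, 8 of 40 held a STAT match, 9 a C/EBP match and 12 the HNF1 letters, whereas 7.02%, 5.65% and 6.43% of all 32851 promoters in the table did. The HNF4 letters occurred in 1 member, F7 (at -34), and in 0.384% and 0.426% of all promoters for the respective forms. No match overlapped another.

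Of the 47 measured members, 12 were lower and 1 was higher in Dnajb4-/- livers at an adjusted p under 0.05 (limma, Benjamini-Hochberg adjustment over all genes). Of all genes tested, 9.57% were lower and 5.09% were higher, 14.7% in either direction. Members are bright on this array, with 40 of the 47 among the 1820 genes of highest intensity. Of those genes, 23.3% were lower and 10.9% were higher, against 8 lower and 1 higher of the 40 members, so the members' share of lower genes was close to that of other bright genes. The 12 members that fell did so by 0.14 to 0.48 on the log2 scale, and none reached a 2-fold difference. Of the 47 members 35 had a lower mean, as 47.6% of all genes did. The median difference was -0.049 over the members and 0.0075 over all genes. The arrays of the genotypes did not overlap for 37 members (78.7%), and for 35.5% of all genes. Beside genes of like intensity these gaps were smaller: over the 40 members among the 1820 brightest genes the median was -0.031, 72.5% had a lower mean and 77.5% did not overlap, and over all 1820 genes the values were -0.026, 57.1% and 70.7%.
Of 18 measured complement members 4 were lower and none was higher, with a median difference of -0.051. Of 21 measured coagulation members 6 were lower and 1 was higher, with a median of -0.044. The shares called lower were 22.2% and 28.6%, beside 9.57% of all genes and 23.3% of the 1820 genes of highest intensity. The lower complement genes were those of surface recognition and of properdin, while the lower coagulation genes other than Fgl1 were spread over several steps. Fgl1, a fibrinogen-like gene, was the only coagulation member whose call held in all 16 alternative settings. The calls of all 4 lower complement genes did so. The mean log2 intensity of the complement members was 11.49 to 11.51 in Dnajb4+/+ and 11.41 to 11.42 in Dnajb4-/- arrays. That of the coagulation members was 11.26 to 11.28 and 11.19 to 11.21, so neither arm's arrays overlapped between genotypes. Among single genes, 35.5% of all and 70.7% of the 1820 of highest intensity did not overlap. Differences between members, or between complement and coagulation, were not tested. With any 1 array left out, 4 complement and 2 to 4 coagulation members passed, none of them higher, and without dim genes 11 and 9 did, so the order of the counts was not fixed. Centring each array on its brighter probe sets raised every member by 0.037 and the median of all genes from 0.0075 to 0.044. It gave 9 lower and 3 higher members, and the share of higher genes among all calls moved from 34.7% to 52.2%.

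**Figure D1:**
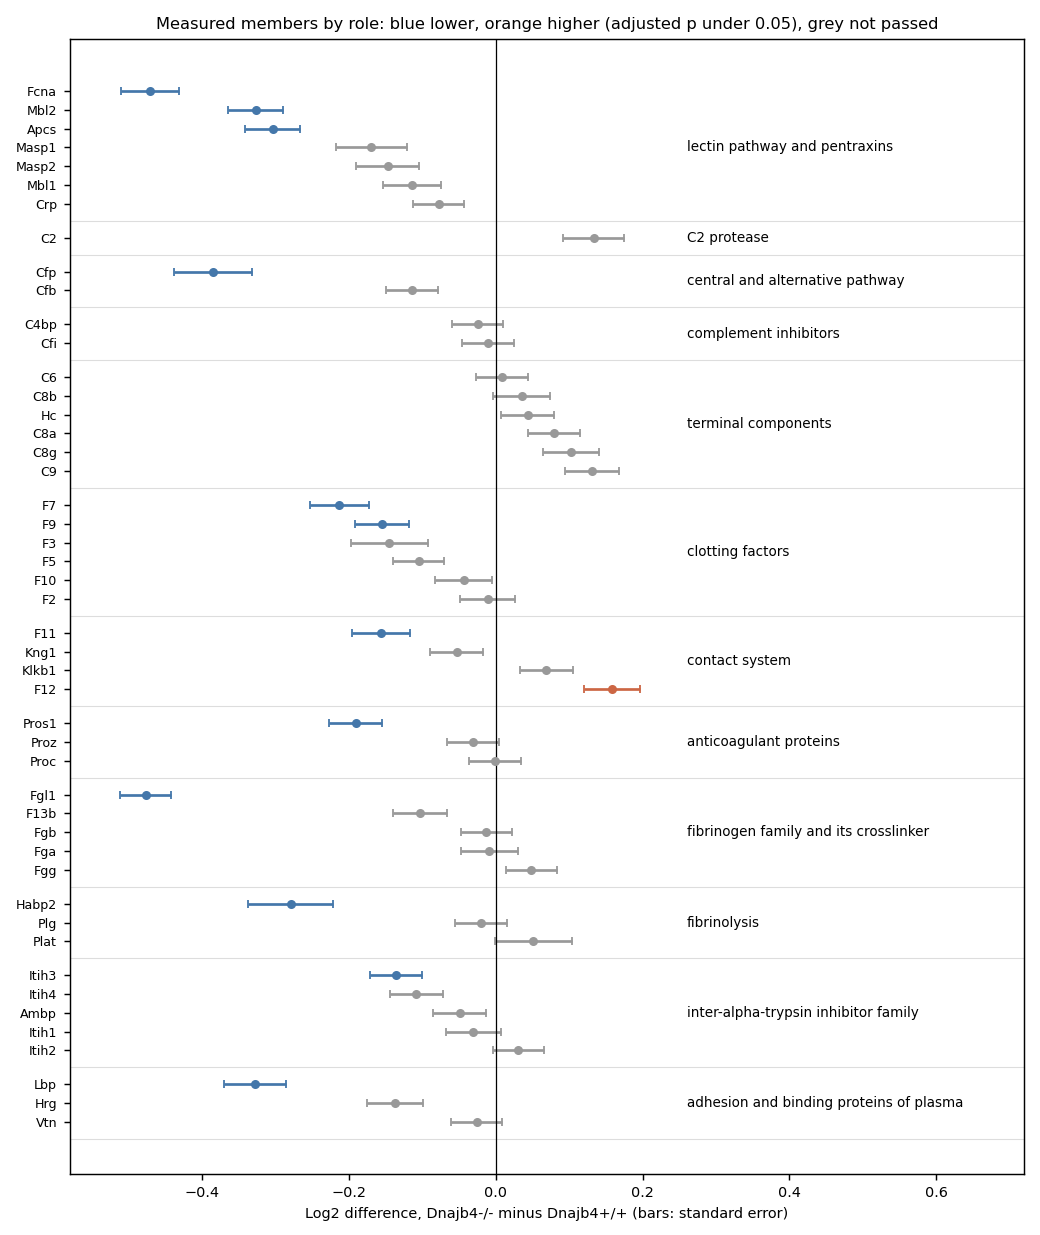
Log2 difference (x axis, Dnajb4-/- minus Dnajb4+/+) with its standard error for each of the 47 measured members, grouped by role, with 12 lower in blue, 1 higher in orange and 34 that did not pass in grey. All 7 genes of the lectin pathway and pentraxins lie left of 0 and all 6 terminal components right of it, from Fgl1 at -0.48 to F12 at 0.16.

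The RNA of the recognition proteins of complement was lower in part. All 7 measured genes of the lectin pathway and pentraxins had a lower mean in Dnajb4-/- livers, with no overlap of arrays, and 3 passed the test. Over all genes 35.5% did not overlap and 9.57% were called lower. Over the 1820 genes of highest intensity these shares were 70.7% and 23.3%, and 57.1% had a lower mean. Fcna encodes ficolin A, a lectin that binds acetylated sugars and that liver and spleen macrophages make in mice. It read 737, 713 and 743 in Dnajb4+/+ and 530, 514 and 538 in Dnajb4-/- arrays. Every Dnajb4-/- array was thus below every Dnajb4+/+ array. The means were 731 ± 15.7 and 527 ± 12.1 (SD, n = 3 each), a log2 difference of -0.47 ± 0.04 (SE, adjusted p = 5.32e-04 in limma).
Mbl2, the mannose-binding lectin C of mice, read 7785, 7702 and 8017 in Dnajb4+/+ and 6275, 6313 and 6154 in Dnajb4-/- arrays. The Dnajb4-/- arrays lay close together and well below the others, at a log2 difference of -0.33 ± 0.04 (SE, adjusted p = 0.00186 in limma). Mbl1, the mannose-binding lectin A, stood at 3602 to 3611 and at 3236 to 3442, a difference of -0.11 that did not pass (adjusted p = 0.104).
Apcs encodes serum amyloid P, the main acute phase pentraxin of mice. It read 7369, 7641 and 7642 in Dnajb4+/+ and 6098, 6058 and 6194 in Dnajb4-/- arrays, a log2 difference of -0.30 ± 0.04 (SE, adjusted p = 0.00252 in limma). Its relative Crp, C-reactive protein, differed by -0.078 (adjusted p = 0.194), from 5666 to 5810 in Dnajb4+/+ and 5426 to 5455 in Dnajb4-/- arrays, so the arrays of both pentraxins were apart but only those of Apcs by an amount that passed. Masp1 and Masp2, the proteases bound to the lectins, differed by -0.17 (adjusted p = 0.0594) and -0.15 (adjusted p = 0.0631).
Properdin, the Cfp product, stabilizes the convertase of the alternative pathway and is made mostly by leukocytes. Cfp read 120, 114 and 108 in Dnajb4+/+ and 90.9, 85.5 and 84.9 in Dnajb4-/- arrays, with no overlap, at a log2 difference of -0.39 ± 0.05 (SE, adjusted p = 0.00429 in limma). Cfb, the protease of that convertase, differed by -0.11 (adjusted p = 0.0752).

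**Figure D2:**
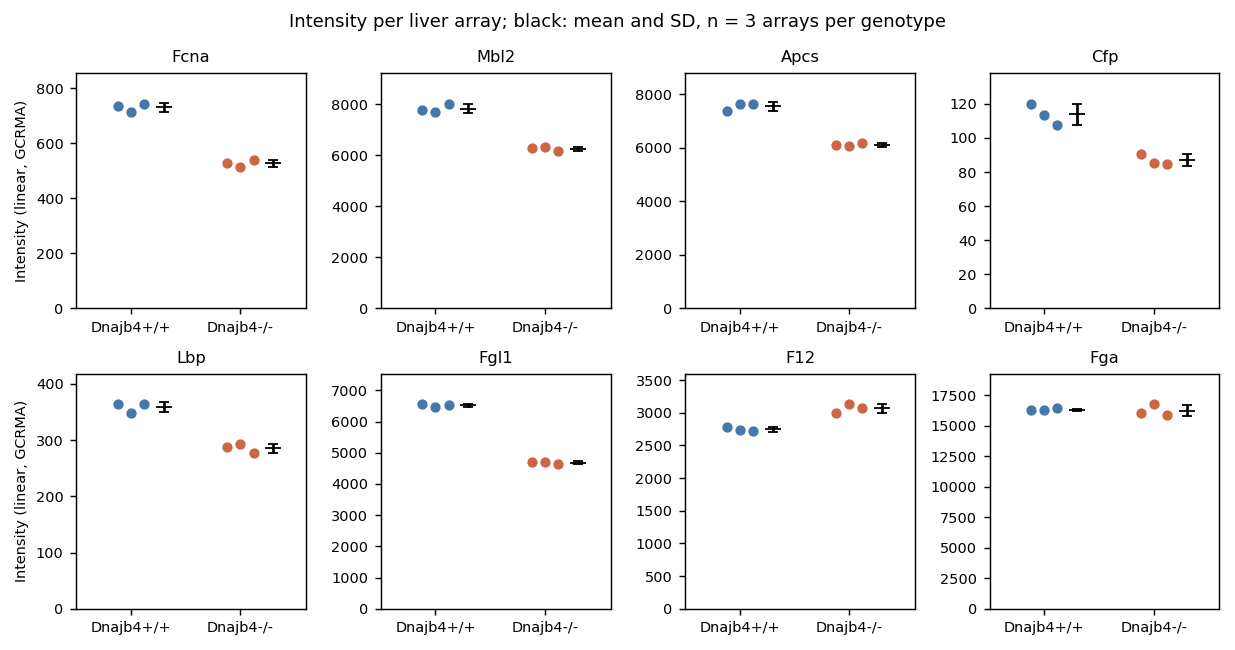
Intensity (y axis, linear GCRMA scale from 0) of 8 members per array (6 in all), where black marks give each genotype's mean and SD (n = 3). For Fcna, Mbl2, Apcs, Cfp, Lbp and Fgl1 every Dnajb4-/- array lies below every Dnajb4+/+ array, for F12 every one lies above (2993 to 3130 against 2712 to 2788), and for Fga they overlap.

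Markers of macrophages moved with these genes. Of 14 measured markers of Kupffer cells, the resident liver macrophages, 13 were lower and 1, Adgre1, did not pass. Their summed intensity was 7791 to 8205 in Dnajb4+/+ and 6026 to 6312 in Dnajb4-/- arrays, and none was at 0. The Kupffer cell lectin Clec4f read 685 to 714 and 563 to 572, a log2 difference of -0.29 (adjusted p = 0.00328 from limma), and the complement receptor gene Vsig4 differed by -0.54 (adjusted p = 2.51e-04). The part of macrophage RNA in the lower Fcna and Cfp was not tested, and in whole liver fewer cells of a type and less RNA per cell cannot be told apart. Of 11 endothelial markers 5 were lower, with a summed intensity of 2275 to 2391 and 2003 to 2112, and of 10 stellate cell and fibroblast markers 2 were lower. The share of lower genes over all genes was 9.57%.

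The genes of the terminal components, which build the membrane pore, all had a higher mean in Dnajb4-/- livers, and none of the 6 passed the test. A lower mean was found for 47.6% of all genes and 57.1% of the 1820 genes of highest intensity, of which 70.7% did not overlap. C9, the subunit that forms most of the pore, read 12253, 12353 and 12736 in Dnajb4+/+ and 13536, 13714 and 13632 in Dnajb4-/- arrays. The arrays did not overlap, and the difference was 0.13 (95% interval 0.04 to 0.22, adjusted p = 0.0572 from limma). C8a, C8b and C8g, which encode the chains of the component that anchors the pore, differed by 0.079, 0.035 and 0.10, Hc, the gene of the component whose cleavage starts pore assembly, by 0.044, and C6 by 0.0084 (95% interval -0.075 to 0.092). For C9 the test was passed in 7 of the 16 alternatives and in none that left out an array (adjusted p from 0.0865 to 0.166).
The inhibitors Cfi, a protease that cleaves the active central fragments, and C4bp, a cofactor of it, differed by -0.011 and -0.024. C2, the protease of the classical and lectin convertase, differed by 0.13 (adjusted p = 0.0801), with 905 to 950 in Dnajb4+/+ and 992 to 1050 in Dnajb4-/- arrays. C2 passed in 5 of the 16 alternatives, and on its brightest probe set the difference was 0.031. The probe set shared by C4a and C4b, which cannot tell those genes apart, read 8563 to 8752 and 8728 to 8834, a difference of 0.019.

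Clotting factors act as protease precursors and cofactors. Those of the contact system, with F12 that was higher, and of the fibrinogen family are given below. All 6 other measured genes of clotting factors had a lower mean in Dnajb4-/- livers and 2 passed. Over all genes 47.6% had a lower mean and 9.57% were called lower, and over the 1820 genes of highest intensity 57.1% and 23.3%. F7, the factor that starts clotting together with tissue factor, read 2305, 2302 and 2397 in Dnajb4+/+ and 2011, 1965 and 2066 in Dnajb4-/- arrays. The groups were apart, at a log2 difference of -0.21 ± 0.04 (SE, adjusted p = 0.0149 in limma), and the call was lost without Dnajb4+/+ replicate 3 or Dnajb4-/- replicate 2 (adjusted p = 0.0539 and 0.0562).
F9, the factor lacking in hemophilia B, read 3189, 3228 and 3234 in Dnajb4+/+ and 2854, 2863 and 2956 in Dnajb4-/- arrays, a difference of -0.15 ± 0.04 (SE, adjusted p = 0.0335 in limma). Its call was lost with any array left out (adjusted p from 0.0613 to 0.0992) and with centring on brighter probe sets (0.0760). F2, prothrombin, read 13640, 13154 and 13413 in Dnajb4+/+ and 13021, 13421 and 13463 in Dnajb4-/- arrays, and these overlapped (difference -0.011 ± 0.04, SE, 95% interval -0.10 to 0.078, adjusted p = 0.880 in limma). F3, tissue factor, F5 and F10 differed by -0.14, -0.10 and -0.044, with adjusted p from 0.0904 to 0.502.

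The contact system, which starts clotting on charged surfaces, moved both ways. F12, its first protease, read 2788, 2736 and 2712 in Dnajb4+/+ and 2993, 3130 and 3071 in Dnajb4-/- arrays, and was the member that was higher, at a log2 difference of 0.16 ± 0.04 (SE, adjusted p = 0.0346 in limma). F11, the protease that it activates, read 1466, 1455 and 1419 in Dnajb4+/+ and 1295, 1265 and 1337 in Dnajb4-/- arrays, a difference of -0.16 ± 0.04 (SE, adjusted p = 0.0429 in limma). Both calls were lost with any array left out (adjusted p from 0.0562 to 0.107 for F12 and from 0.0646 to 0.130 for F11). That of F11 was also lost with quantile normalization (adjusted p = 0.0525) and with centring on brighter probe sets (0.112). The other members of the system, Klkb1 (prekallikrein) and Kng1 (kininogen), differed by 0.069 and -0.053 and did not pass.

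The 3 fibrinogen chain genes did not pass the test while their relative Fgl1 fell. Fga read 16258, 16256 and 16412 in Dnajb4+/+ and 16040, 16749 and 15867 in Dnajb4-/- arrays, which overlapped (difference -0.0084 ± 0.04, SE, 95% interval -0.10 to 0.083, adjusted p = 0.910 in limma). Fgb, the beta chain, read 18684, 18698 and 18498 and then 18373, 18312 and 18703, which overlapped too (-0.013 ± 0.04, interval -0.096 to 0.070, adjusted p = 0.846). Fgg, the gamma chain, read 18749, 18852 and 18748 and then 19506, 19206 and 19575, all higher but not past the threshold (0.049 ± 0.03, interval -0.033 to 0.13, adjusted p = 0.403). F13b, the carrier subunit of the enzyme that crosslinks fibrin, differed by -0.10 (adjusted p = 0.112).
Fgl1 encodes a secreted fibrinogen-like protein of hepatocytes, also known as hepassocin and as a ligand of the T cell receptor LAG3. It read 6558, 6459 and 6548 in Dnajb4+/+ and 4721, 4704 and 4638 in Dnajb4-/- arrays. The Dnajb4-/- arrays were all lower, at a log2 difference of -0.48 ± 0.03 (SE, adjusted p = 2.97e-04 in limma).

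Among the genes of anticoagulant proteins, Pros1 was lower and Proc did not pass. Pros1, the cofactor of activated protein C, read 523, 505 and 506 in Dnajb4+/+ and 449, 449 and 447 in Dnajb4-/- arrays, a difference of -0.19 ± 0.04 (SE, adjusted p = 0.0152 in limma). Leaving out Dnajb4+/+ replicate 1, or replicate 2 or 3 of Dnajb4-/-, ended the call (adjusted p = 0.0634, 0.0518 and 0.0535). Proc, protein C itself, read 7021 to 7169 and 6998 to 7116, at a difference of -5.65e-04 (95% interval -0.084 to 0.083).
Of the genes of fibrinolysis, Habp2, a protease that activates urokinase and factor VII, fell, at a difference of -0.28 ± 0.06 (SE, adjusted p = 0.0215 in limma). Its arrays were at 236, 226 and 246 against 190, 208 and 185, and the call was lost when replicate 1 or 3 of either genotype was left out (adjusted p from 0.0680 to 0.0717), and with the methods' t-test (0.0759). Without probe sets that may read several transcripts the difference was -0.12 (adjusted p = 0.345). Plg, plasminogen, read 16019, 16201 and 16415 in Dnajb4+/+ and 15822, 15927 and 16212 in Dnajb4-/- arrays, which overlapped (difference -0.020 ± 0.04, SE, 95% interval -0.10 to 0.065, adjusted p = 0.754 in limma). Plat, the tissue plasminogen activator, read 17.5 to 19.4 over all arrays, in the lower range of the table.

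Of the 8 measured genes of other plasma proteins, 2 were lower. These were Lbp, whose product carries bacterial lipopolysaccharide to its receptor, and Itih3, which encodes a heavy chain that attaches to hyaluronan. That share of 25% stood beside 9.57% of all genes and 23.3% of the 1820 genes of highest intensity. Lbp read 364, 348 and 364 in Dnajb4+/+ and 287, 293 and 277 in Dnajb4-/- arrays, a difference of -0.33 ± 0.04 (SE, adjusted p = 0.00300 in limma). Itih3 read 8006, 8088 and 7865 in Dnajb4+/+ and 7223, 7234 and 7353 in Dnajb4-/- arrays, a difference of -0.14 ± 0.04 (SE, adjusted p = 0.0476 in limma), and this call was lost with any array left out (adjusted p from 0.0904 to 0.132), with quantile normalization (0.0563), with centring (0.133) and without probe sets that may read several transcripts (0.0557).
The heavy chains Itih1, Itih2 and Itih4 and Ambp, the precursor of the light chain bikunin, differed by -0.030, 0.031, -0.11 and -0.049 and did not pass. Vtn (vitronectin, an adhesion protein that also holds back the membrane pore) differed by -0.026, and Hrg (histidine-rich glycoprotein) by -0.14 (adjusted p = 0.0573).

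For 6 of the 13 called members the call held in all 16 alternatives, which include each left-out array: Fcna, Mbl2, Apcs, Cfp, Lbp and Fgl1. All 13 kept their direction in every alternative.

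**Figure D3:**
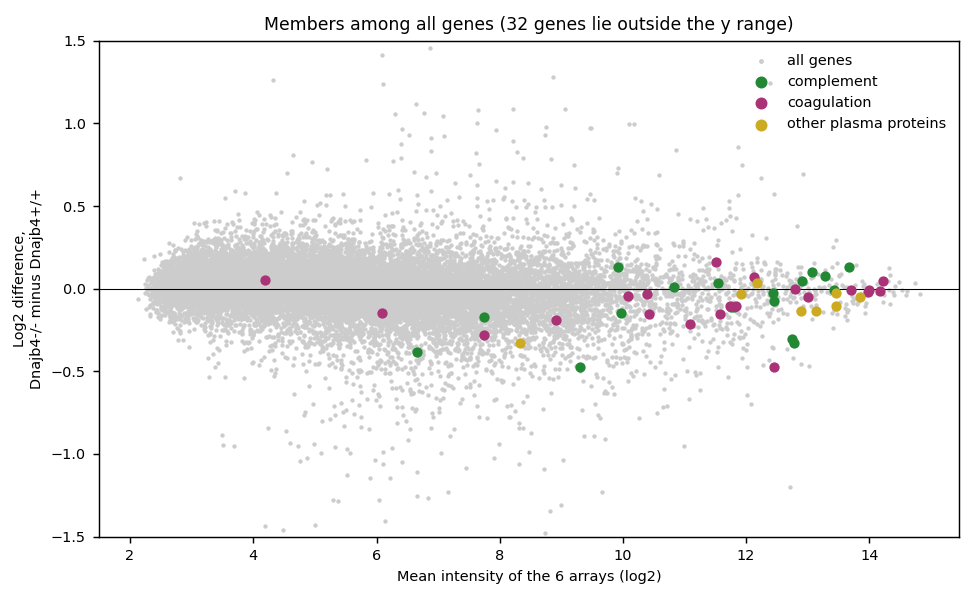
Log2 difference (y axis, Dnajb4-/- minus Dnajb4+/+) against the log2 of the mean intensity of the 6 arrays (x axis) for all genes in grey, with complement members in green, coagulation members in purple and other plasma proteins in yellow; 32 genes lie outside the y range. Most members lie at the bright end, where 23.3% of genes were lower and 10.9% were higher, and all members lie between -0.48 and 0.16.

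Several probe sets were available for 12 members, and for some they differed. Proz encodes protein Z, a cofactor in the inhibition of factor X. Its brighter probe set read 2658, 2590 and 2550 in Dnajb4+/+ and 2910, 2896 and 2850 in Dnajb4-/- arrays, a difference of 0.15 (adjusted p = 0.0825 over all probe sets, of which 10.4% were called). The dimmer read 716, 705 and 718 and then 611, 624 and 611, a difference of -0.21 (adjusted p = 0.0259). These run in opposite directions without overlap of arrays, so that their mean of -0.031 describes neither.
Cfp fell by 0.61 on its brighter probe set (266, 259 and 266 against 187, 168 and 164, adjusted p = 0.00195) and its dimmer one differed by -0.16 (adjusted p = 0.263). The call of Habp2 rested on a probe set that may read several transcripts (-0.43, adjusted p = 0.00488), and its other probe set differed by -0.12 (adjusted p = 0.387). For Masp1 1 of 5 probe sets was lower (-0.26, adjusted p = 0.0188) while the brightest differed by -0.033. For C2 1 of 3 was higher (0.21, adjusted p = 0.0319) while the brightest differed by 0.031. For Lbp both passed, at -0.38 and -0.27. The probe sets of F10 and of Plat differed in sign, and none of them passed. Those of F10 stood at -0.12, 0.015 and, for the brightest, -0.022, and those of Plat at 0.11 and -0.012.

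**Figure D4:**
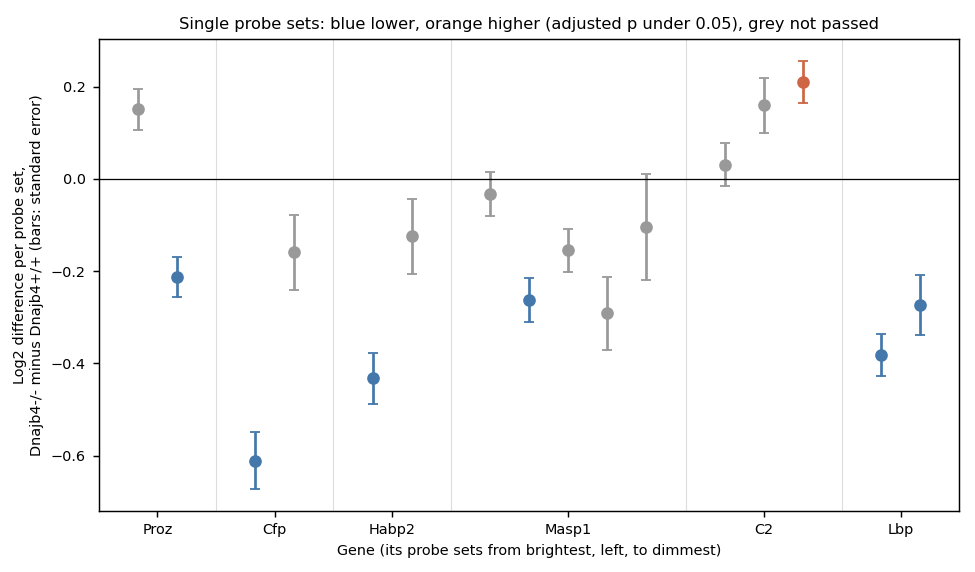
Log2 difference with its standard error (y axis, Dnajb4-/- minus Dnajb4+/+) of each single probe set of 6 members, ordered from the brightest to the dimmest within a gene, with blue for lower, orange for higher and grey for not passed. The 2 probe sets of Proz lie on opposite sides of 0 (0.15 and -0.21), and those of Cfp, Habp2, Masp1 and Lbp all lie below it.

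Other genes of the same pathways, outside the set, were counted the same way. Of 30 measured complement genes 8 were lower and 2 higher, and 20 did not pass, with a median difference of -0.028. Over all genes 9.57% were lower and 5.09% higher, and over the 1820 genes of highest intensity 23.3% and 10.9%. The lower genes that moved most were Vsig4 (-0.54), C1qc (-0.49), which encodes a chain of C1q, Itgb2 (-0.41), the integrin chain of complement receptors, and the factor H related gene Cfhr3 (-0.34). Cfhr3 was dim, at 32.8 to 44.7 over all arrays. Of these 8, 4 also stand on the list of Kupffer cell markers. Higher were Susd4, a complement regulator that is also on the list of male-high liver genes (0.32), and the scavenger collectin Colec12 (0.22).
Of 34 measured coagulation and fibrinolysis genes 2 were lower, the protease genes Hpn (-0.25) and Hgfac (-0.19), 4 were higher and the other 28 did not pass, with a median of -0.024. The shares over all genes were 9.57% lower and 5.09% higher. Higher were A2m (0.32), the thrombin receptor F2r (0.31), the inhibitor Tfpi2 (0.26) and Lman1 (0.20), the carrier that exports factors V and VIII from the endoplasmic reticulum. A2m was dim, at 23.5 to 35.0 over all arrays (adjusted p = 0.0429 in limma).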

How the data were processed

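Total RNA from livers of 3 Dnajb4+/+ and 3 Dnajb4-/- mice was measured on Affymetrix Mouse Genome 430 2.0 arrays. The authors used GeneSpring to normalize them by GCRMA with global median centring, and deposited intensities on a linear scale. Array medians lay between 31.8 and 32.5, and the lowest value was 3.90. Software versions of that step are not given in the sources used here. Of 45101 probe sets, 64 controls were left out. For the 34945 with exactly 1 gene symbol in the GEO platform annotation, log2 values were computed from the deposited intensities, and their mean was taken per gene (18193 genes).
The genotypes were compared in limma 3.58.1 (lmFit and eBayes, two-sided, R 4.3.3), adjusting by Benjamini-Hochberg over all genes, with calls at 0.05. Intervals are limma's at 95%. The number of arrays limits the precision. Single probe sets were fitted likewise, over all probe sets. Alternatives covered normalization, centring, dim genes, the choice of probe sets, an offset, the variance model, the methods' t-test, a replicate block and each array left out.
The members, lists and motifs were chosen with earlier results of these data known. Values per array are given for all called members and for Fga, Fgb, Fgg, F2 and Plg, and, chosen after its values were seen, for C9. Of the other pathway genes, up to 4 called in each direction are named by size. Plots were made in matplotlib 3.10.9 (python 3.11.15).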

Additional observations from a re-analysis of the deposited data

How the results depend on the processing

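The 13 called members kept their direction in all 16 alternatives and 6 of them kept their call in each. Counts of calls moved more. From 12 lower and 1 higher, quantile normalization gave 10 and 3, centring on brighter probe sets 9 and 3, leaving out dim genes 20 and 4, an offset of 16 also 20 and 4, eBayes with trend and robust settings 23 and 7, the brightest probe set per gene and the linear mean over probe sets 14 and 2 each, and the methods' t-test 17 and 4 after Benjamini-Hochberg adjustment (24 and 9 at its own unadjusted threshold). Without probe sets that may read several transcripts the counts were 10 and 1. With the replicate block 7 were lower and 0 higher, with 2 coagulation members called. Deviations of same-numbered arrays from their group means correlated at -0.021, -0.14 and 0.0091, and those of differently numbered arrays at -0.10 to 0.12. With 3 arrays per genotype these values cannot tell whether same-numbered arrays shared a batch. With 1 array left out, 7 to 9 were lower and 0 higher, with 2 to 4 coagulation and 4 complement members called.
Complement members called numbered 11 without dim genes and with the offset, 13 with trend and 8 with the t-test, against 4, and coagulation members 12 with trend, against 7. Over all genes the calls numbered 2667, and 1529 with the replicate block. The median difference was -0.014 for complement and -0.0067 for coagulation with centring on brighter probe sets, and -0.029 and -0.022 with the brightest probe set; for coagulation it was -0.028 with the linear mean and -0.056 to -0.032 with an array left out. Centring shifted every member by 0.037 by construction, and the median of all genes by as much (0.0075 to 0.044). The cause of the other shifts was not tested.
The sign changed in 22 instances for 11 members, none of them called, and 10 of the 22 came from the uniform shift of centring. These were C4bp (0.012), Cfi (0.026), F2 (0.026), Fga (0.029), Fgb (0.024), Itih1 (0.0066), Plg (0.017), Proc (0.036), Proz (0.0057) and Vtn (0.011), with quantile normalization Fga (0.017), Plg (0.021) and Proc (0.0055), and for Proz 0.15 (adjusted p = 0.0374) with the brightest probe set and 0.080 with the linear mean. With an array left out, F2 lay at -0.024 to 0.0044, Cfi at -0.018 to 2.03e-04, Proc at -0.0056 to 0.0094, C6 at -0.0015 to 0.017 and Fga at -0.032 to 0.0073.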

Other observations

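Regulators of liver and acute phase genes were listed beside the members. Of 17 measured, 6 were higher and 3 lower, and 8 did not pass, in Dnajb4-/- livers (limma, adjusted over all genes). Over all genes 5.09% were higher and 9.57% lower, and over the 1820 genes of highest intensity 10.9% and 23.3%. Higher were the liver transcription factors Onecut1, from 224 ± 6.04 to 397 ± 4.31 (SD, n = 3; log2 difference 0.83, adjusted p = 3.97e-05), Foxa1 (0.50), Foxa2 (0.35), Foxa3 (0.33) and Hnf4a (0.17), and the receptor gene Il1r1 (0.24). Lower were the bile acid receptor gene Nr1h4, from 1357 ± 35.2 to 939 ± 23.4 (SD, n = 3; -0.53, adjusted p = 3.76e-04), Socs3, an inhibitor of cytokine signaling (-0.25), and Cebpa (-0.23). Stat3, Il6ra and Cebpb, chosen after their values were seen, which carry the interleukin-6 signal to acute phase genes, differed by 0.029, -0.0065 and -0.0013 and did not pass. Il6st, a receptor chain of the same signal, differed by -0.10 without overlap of arrays and did not pass either (adjusted p = 0.115 in limma). The arrays of Stat3 were also apart, at 179 to 183 in Dnajb4+/+ and 184 to 187 in Dnajb4-/- arrays. Over all genes 35.5% did not overlap. These are RNA values, and the phosphorylation of STAT3 was not measured here.

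Of 6 measured megakaryocyte and platelet markers none passed, with a summed intensity of 303 to 311 in Dnajb4+/+ and 303 to 326 in Dnajb4-/- arrays. Of 7 adipocyte markers Adipoq (-0.46) and Pparg (-0.25) were lower, and of 5 cholangiocyte markers Sox9 (0.42) was higher. Adipoq and Sox9 were dim, at 12.8 to 21.1 and 23.2 to 34.2 over all arrays. The shares over all genes were 9.57% lower and 5.09% higher.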
